A study of Danio rerio with 6 samples.

Results

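The core transcription factor genes of the zebrafish heart, nkx2.5, nkx2.7, gata4, gata5, gata6, tbx5a, tbx20, hand2, mef2ca and mef2cb, were followed in fish treated with the gamma-secretase inhibitor DAPT. They were chosen by name, with earlier results of these data known, and all 10 were found among the 25920 genes of the deposited table. RNA came from Tg(myl7:mCherry) zebrafish, whose heart muscle cells carry a red fluorescent marker under the myl7 promoter. The 3 DAPT libraries came from fish kept in 100 µM DAPT between 60 and 96 hours post fertilization, and the 3 DMSO libraries from fish of the same transgenic strain kept in the solvent DMSO over the same hours. DAPT blocks the protease that frees the active intracellular part of Notch receptors, so the comparison asks which transcripts differ when Notch signalling and the other substrates of this protease are affected in the late embryo. How many fish went into a library, and whether the 3 libraries of a group are separate clutches, is not stated in the labels, and the spread behind the p-values may therefore be technical.

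These factors belong to 5 protein families. The homeodomain proteins Nkx2.5 and Nkx2.7, the zinc finger proteins Gata4, Gata5 and Gata6, the T-box proteins Tbx5a and Tbx20, the basic helix-loop-helix protein Hand2 and the MADS-box proteins Mef2ca and Mef2cb bind one another and neighbouring sites in the regulatory regions of contractile protein genes. They act from the specification of heart precursors onwards and keep working in the differentiated chambers. None is limited to the heart. The Gata factors are also known from the endoderm of gut and liver, Tbx5a and Hand2 from the pectoral fin and Hand2 from the pharyngeal arches, and Mef2 factors from skeletal muscle.

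Libraries held 21439371 to 21808613 counts with DAPT and 20542549 to 20656633 counts with DMSO. Hearts are given as tissue in the sample labels and embryos in the design text, and transcripts of other organs were abundant in every library. The rod photoreceptor gene rho averaged 542 ± 12.1 CPM with DAPT and 1349 ± 283 CPM with DMSO (CPM, counts relative to the library total after scaling with TMM factors, mean ± SD, n = 3), beside 1398 ± 59.1 and 929 ± 104 CPM for the heart muscle gene myl7. None of the genes on 11 marker lists for other cell types had a count of 0 in any library. This says little, because only 2269 of all 25920 genes had one. From the abundance of transcripts such as rho, the levels below are taken as those of a mixture of tissues that includes heart. In such bulk samples more cells of a type and more RNA per cell cannot be told apart.

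Of the 10 genes 9 rose with DAPT and 0 fell, by edgeR's quasi-likelihood test at an adjusted p of 0.05 over all genes, where 22.4% of the 22092 genes tested were called higher, 24.3% lower and 46.6% in either direction. The rises ran between 0.30 and 1.69 on the log2 scale. The median log2 fold change (DAPT minus DMSO) of the 10 was 0.68, and that of all genes tested -0.0043. In 9 of the 10 the DAPT values lay above all DMSO values in CPM, which held for 27.8% of all genes tested, while the reverse held for 29.0% and either for 56.8%. The exception was mef2cb. All 10 genes passed the filter on low counts, and mef2ca alone among them had a count that was not whole, in 1 library.

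**Figure D1:**
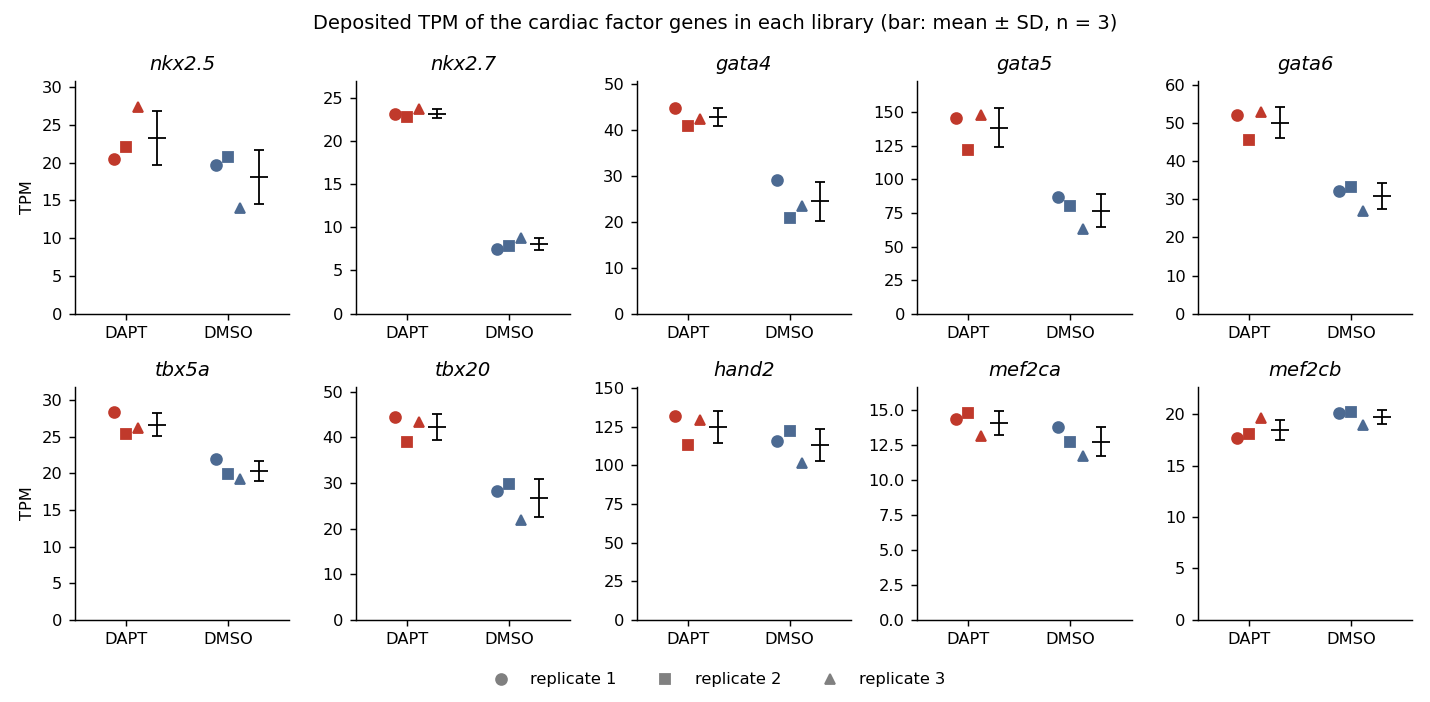
Deposited TPM (a level per transcript length, relative to the library) of each gene in each library, DAPT in red and DMSO in blue, with the replicate number as the symbol and the mean ± SD (n = 3) beside it. The groups stand apart in nkx2.7, the Gata genes, tbx5a and tbx20, while in nkx2.5, hand2, mef2ca and mef2cb the TPM values of the groups overlap.

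Both homeodomain genes rose, and nkx2.7 had the largest log2 fold change of the 10. In zebrafish Nkx2.5 and Nkx2.7 act together to keep ventricular muscle from taking on atrial traits. The transcript of nkx2.7 (gene ID 30694) had 16.3, 16.3 and 16.4 CPM in the 3 DAPT libraries, against 4.83, 4.94 and 5.43 CPM in the 3 DMSO libraries. This was a 3.22-fold rise (log2 fold change 1.69 ± 0.09 SE, adjusted p = 5.46e-08), and 129 of the 22092 genes tested had a larger log2 fold change. It rests on 335 to 349 counts per DAPT library and 101 to 119 per DMSO library. The SD of 0.0541 CPM over the DAPT libraries is below the 0.885 CPM that counting error alone gives at this depth, so the closeness of those 3 values overstates the precision.

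The transcript of nkx2.5 (gene ID 30696) had 21.1, 23.1 and 27.6 CPM with DAPT, against 18.5, 19.1 and 12.6 CPM with DMSO. The groups did not overlap in CPM, but DMSO replicate 3 lay well under the other DMSO libraries and DAPT replicate 3 above the other DAPT libraries. The fitted rise was 0.52 ± 0.14 on the log2 scale (adjusted p = 0.0098). It missed the threshold without DAPT replicate 3 (0.41, adjusted p = 0.0634) and on the log2(TPM + 1) scale (0.36, adjusted p = 0.0613). Without DMSO replicate 3 it was 0.35 (adjusted p = 0.0115).

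Set against each other within a library, which removes any common scaling, the TPM of nkx2.7 was 1.13, 1.03 and 0.865 times that of nkx2.5 with DAPT, against 0.381, 0.377 and 0.629 times with DMSO. The pair thus stood near equal levels with DAPT, while nkx2.7 was the lower of the pair in all 3 DMSO libraries. The difference in the log2 ratio was 1.16, with no overlap between groups. An exact two-sided permutation test gave p = 0.1, the smallest that 3 libraries against 3 allow, and 0.333 after adjustment over the 5 pairs of members compared this way.

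The 3 Gata genes rose by 0.86 to 1.01 on the log2 scale. In zebrafish Gata5 is needed for heart muscle precursors and for endoderm, Gata6 shares part of that work, and Gata4 acts in heart looping and in the growth of liver and gut. The transcript of gata5 (gene ID 30482) had 204, 174 and 202 CPM with DAPT, against 111, 99.9 and 77.3 CPM with DMSO, a 2.01-fold rise (1.01 ± 0.11, adjusted p = 1.7e-05). The transcript of gata4 (gene ID 30483) had 30.8, 28.7 and 28.7 CPM with DAPT, against 18.3, 12.9 and 14.1 CPM with DMSO, a 1.95-fold rise (0.96 ± 0.11, adjusted p = 2.02e-05).

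For gata6 (gene ID 58076) the values were 73.2, 65.3 and 72.7 CPM with DAPT, against 41.6, 42.1 and 33.1 CPM with DMSO, a 1.81-fold rise (0.86 ± 0.09, adjusted p = 9.1e-06). All 3 Gata genes had DAPT libraries wholly above the DMSO libraries in CPM and in TPM. They passed under each of the 15 alternative settings, with log2 fold changes of 0.85 to 1.12 for gata5, 0.79 to 1.12 for gata4 and 0.69 to 0.92 for gata6. Ratios among them overlapped between groups. In the geometric mean the TPM of gata5 was 3.24 times that of gata4 with DAPT and 3.14 times with DMSO (difference in log2 ratio 0.045, exact two-sided permutation p = 0.9). For gata6 over gata4 the difference was -0.11 (exact p = 0.9) and for gata6 over gata5 it was -0.16 (exact p = 0.2). With 3 libraries a group these tests cannot show that the 3 genes responded alike.

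Both T-box genes rose. Tbx5a is required in zebrafish for heart looping and for the pectoral fin, and Tbx20 represses other T-box genes and supports chamber growth. The transcript of tbx20 (gene ID 57936) had 164, 148 and 155 CPM with DAPT, against 95.9, 99.9 and 71.9 CPM with DMSO, a 1.74-fold rise (0.80 ± 0.10, adjusted p = 4.97e-05). The transcript of tbx5a (gene ID 30071) had 36.2, 33.2 and 32.8 CPM with DAPT, against 25.0, 23.1 and 21.4 CPM with DMSO, a 1.47-fold rise (0.56 ± 0.07, adjusted p = 8.06e-05). Neither gene's groups overlapped, and both calls held under all 15 alternatives (0.65 to 0.89 for tbx20 and 0.37 to 0.61 for tbx5a).

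The rises of hand2 and mef2ca were small, and mef2cb did not pass. Hand2 is needed for the number and merging of heart muscle precursors. Mef2ca and Mef2cb switch on contractile genes, and Mef2cb also acts in the late addition of muscle at the arterial pole of the heart. The transcript of hand2 (gene ID 58150) had 134, 117 and 129 CPM with DAPT, against 108, 111 and 90.6 CPM with DMSO, a 1.23-fold rise (0.30 ± 0.08, adjusted p = 0.00888). The gap between the groups was narrow, and on the log2(TPM + 1) scale the call was lost (0.14, adjusted p = 0.168).

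The transcript of mef2ca (gene ID 30575) had 39.4, 41.4 and 35.1 CPM with DAPT, against 34.5, 31.2 and 28.2 CPM with DMSO (0.30 ± 0.08, adjusted p = 0.011). DAPT replicate 3 and DMSO replicate 1 nearly touched. The call was lost without DAPT replicate 2 (0.25, adjusted p = 0.0545) and on the log2(TPM + 1) scale (0.14, adjusted p = 0.188). For mef2cb (gene ID 798771) the values were 33.2, 34.8 and 35.8 CPM with DAPT, against 34.8, 35.2 and 31.5 CPM with DMSO, and the groups overlapped. Its log2 fold change of 0.03 ± 0.07 did not pass (adjusted p = 0.721), and it was -0.065 with library totals alone and -0.094 on the log2(TPM + 1) scale. In the geometric mean the TPM of mef2cb was 1.31 times that of mef2ca with DAPT and 1.55 times with DMSO. The difference in log2 ratio was -0.25 with overlapping groups (exact two-sided permutation p = 0.2).

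**Figure D2:**
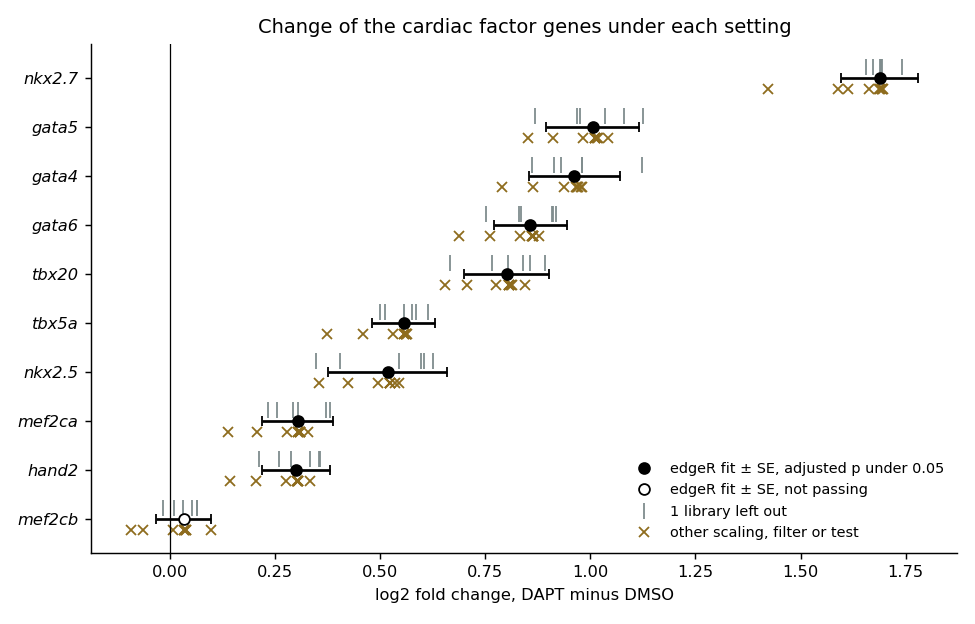
Log2 fold change (DAPT minus DMSO) of each gene from edgeR's quasi-likelihood fit with its standard error, filled where the adjusted p was under 0.05. Grey ticks show fits with 1 library left out and brown crosses other scalings, filters or tests. All values of nkx2.7 lie right of 1.4, and those of mef2cb lie on both sides of 0.

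By level per transcript length, gata5 and hand2 led in both groups. With DAPT gata5 had 139 ± 14.5 TPM and hand2 125 ± 10.4 TPM, and their values overlapped. With DMSO hand2 had 113 ± 10.5 TPM, above gata5 at 76.7 ± 12.2 TPM with no overlap. The next levels with DAPT were gata6 at 50.1 ± 3.99 TPM, then gata4 at 42.7 ± 1.95 TPM and tbx20 at 42.3 ± 2.92 TPM, which overlapped. With DMSO gata6 at 30.8 ± 3.47 TPM, tbx20 at 26.7 ± 4.12 TPM and gata4 at 24.5 ± 4.21 TPM overlapped as neighbours.

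Among the lower ranks nkx2.7 stood higher with DAPT than with DMSO. With DAPT tbx5a at 26.6 ± 1.57 TPM, nkx2.5 at 23.3 ± 3.58 TPM and nkx2.7 at 23.2 ± 0.472 TPM overlapped as neighbours, above mef2cb at 18.4 ± 1.00 TPM and mef2ca at 14.1 ± 0.856 TPM, each separate from the next. With DMSO tbx5a at 20.4 ± 1.39 TPM, mef2cb at 19.7 ± 0.677 TPM and nkx2.5 at 18.1 ± 3.63 TPM overlapped as neighbours. Below them mef2ca at 12.7 ± 1.04 TPM and nkx2.7 at 8.02 ± 0.676 TPM stood apart. So nkx2.7 was at rank 8 of 10 with DAPT and at rank 10 with DMSO.

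Within the DMSO group many of these genes were low in the same library, though how many of all genes were lowest there was not counted. DMSO replicate 3 held the lowest CPM of the group for 8 of the 10 genes, the exceptions being nkx2.7, which was highest there, and gata4, which was lowest in DMSO replicate 2. The lowest values were 75.2% of the DMSO mean for nkx2.5, 80.4% for gata5 and 80.6% for tbx20. A set of 6 heart muscle genes (myl7, cmlc1, tnnt2a, tnnc1a, myh6 and myh7) was low in the same library, at a summed 3188 CPM beside 3949 and 4033 CPM in the other DMSO libraries. Skeletal muscle markers were low there as well (3492 CPM in DMSO replicate 3, 4648 and 4584 CPM in the others). Without DMSO replicate 3 the count of genes called higher stayed at 9 and the log2 fold changes of gata5, tbx20, gata6 and hand2 were 0.87, 0.67, 0.75 and 0.21. In the DAPT group replicate 2 was under the group mean for 8 of the 10.

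**Figure D3:**
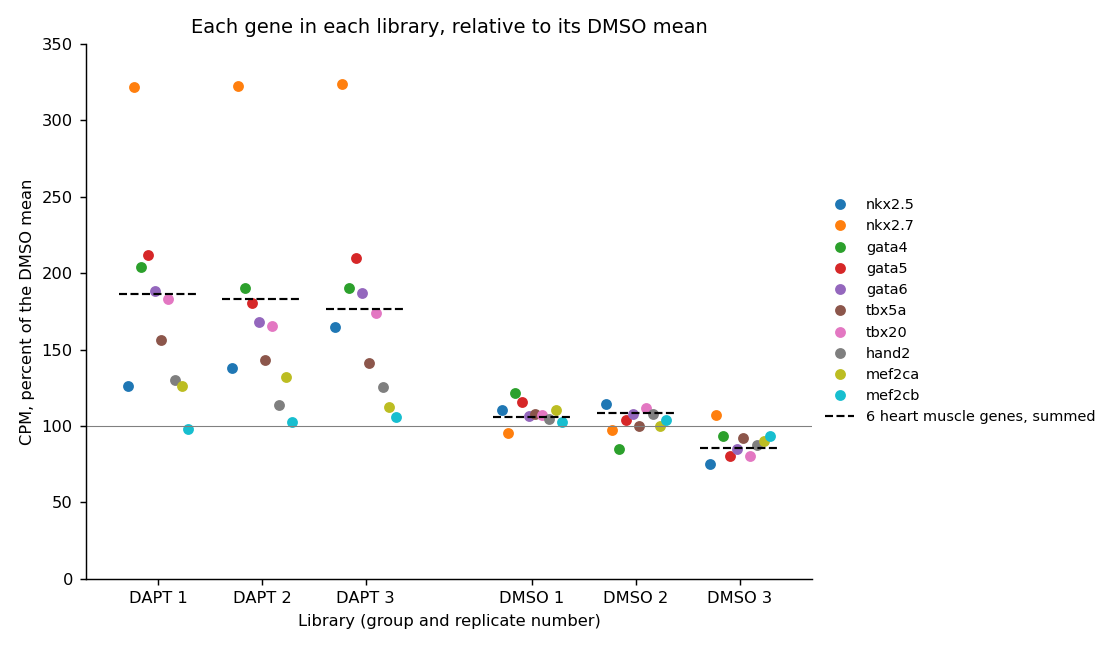
CPM of each gene in each library as a percent of that gene's DMSO mean, with the dashed line giving the same for the summed CPM of 6 heart muscle genes (176% to 186% in DAPT libraries, 85.6% to 108% in DMSO libraries). The points of DMSO replicate 3 lie mostly under 100, and nkx2.7 lies far above the dashed line in the DAPT libraries. There hand2, mef2ca, mef2cb, nkx2.5, tbx5a and tbx20 lie under it, tbx20 the least far.

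The 6 heart muscle genes themselves rose, to a summed 6569 to 6937 CPM with DAPT, against 3188 to 4033 CPM with DMSO, which is 1.82 times in the mean. Each member was therefore also expressed per heart muscle transcript within the same library. The percents given next are geometric means over the libraries of a group. Relative to this set nkx2.7 was higher with DAPT, at 0.242% of the set's CPM against 0.137% with DMSO (difference in log2 0.82), and its groups did not overlap. Lower in all DAPT libraries than in all DMSO libraries were mef2cb at 0.511% with DAPT and 0.913% with DMSO (-0.84), hand2 at 1.87% and 2.78% (-0.57), mef2ca at 0.569% and 0.842% (-0.57) and tbx5a at 0.502% and 0.624% (-0.31). Groups overlapped for gata4 (0.11), gata5 (0.15), gata6 (-0.0078), tbx20 (-0.057) and nkx2.5 (-0.34).

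Exact two-sided permutation tests gave p = 0.1, the smallest possible, for the 5 genes whose groups did not overlap, and 0.2 after adjustment over the 10. With myl7 alone as the denominator nkx2.7 was again higher in all DAPT libraries, and the differences were -0.56 for mef2cb, -0.29 for hand2 and -0.29 for mef2ca, these also without overlap, whereas tbx5a was at -0.037. Against myl7 the Gata genes and tbx20 were higher in all DAPT libraries, at 0.42 for gata5, 0.38 for gata4, 0.27 for gata6 and 0.22 for tbx20. The direction for gata6 and tbx20 thus depended on which heart muscle genes formed the denominator. In the fit of all genes myh6 rose by 1.93 ± 0.11 and myl7 by 0.59 ± 0.08 on the log2 scale. The most counted gene of the set was myh7, at 2876 ± 95.4 CPM with DAPT and 1459 ± 210 CPM with DMSO (0.98 ± 0.09). Its counts are not whole in any library, so the level of the set is uncertain. That nkx2.7 was higher, and that hand2, mef2ca and mef2cb were lower, held for both denominators. The denominators are not independent, as myl7 is part of the set. Both denominators rose with DAPT, so a gene that did not change would also come out lower.

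**Figure D4:**
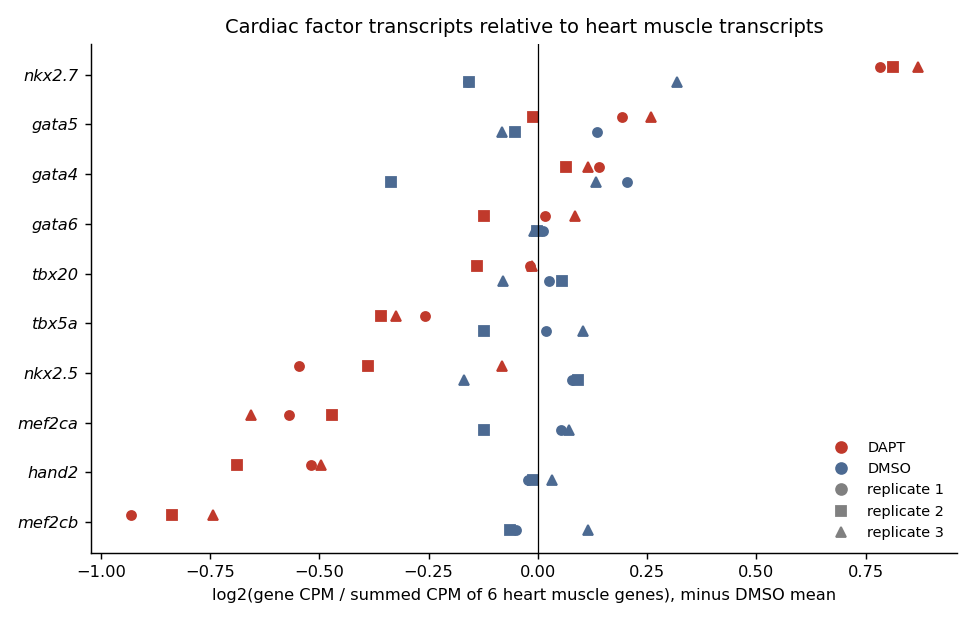
Log2 of each gene's CPM over the summed CPM of 6 heart muscle genes in the same library, shown as the difference from the DMSO mean (DAPT in red above DMSO in blue, the symbol giving the replicate number). DAPT points lie wholly right of the DMSO points for nkx2.7 and wholly left of them for tbx5a, hand2, mef2ca and mef2cb.

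Heart muscle, natriuretic peptide and channel genes mostly moved in the same direction as these factors, but whether the factors drove this was not tested. Of 20 listed genes 16 rose, 2 fell and 2 were below the threshold for a call, with a median of 0.59 on the log2 scale. Over all genes tested 22.4% were called higher and 24.3% lower. The 20 include the 6 heart muscle genes that formed the denominator above. The natriuretic peptide genes nppb and nppa, known targets of Gata4, Nkx2.5 and Tbx5 in mammals, rose by 1.41 ± 0.07 and 1.55 ± 0.09. The atrial myosin gene myh6 and the sodium channel gene scn5lab rose by 1.93 ± 0.11 and 1.96 ± 0.13. The 2 that fell, chosen after their values were seen, were the connexin gene gja5a at -0.86 ± 0.27, at a low level of 1.51 ± 0.520 CPM with DAPT and 2.75 ± 0.700 CPM with DMSO, and the actin gene actc1a at -0.31 ± 0.10. Both calls were lost without DAPT replicate 2 or DMSO replicate 1, and that of actc1a also without DAPT replicate 3. Counts of nppa, myh7 and actc1a include values that are not whole, for which reads may have been divided among similar genes, so their levels are uncertain.

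Relatives from the same families were called at about the share of all genes. Of 23 genes of the Nkx2, Gata, T-box and Mef2 families outside the 10, 5 rose, 7 fell and 11 did not pass (median 0.03), beside 22.4% higher and 24.3% lower over all genes tested. The split turned with the scaling, and was 3 higher and 9 lower with library totals alone. It was 8 higher and 3 lower on a log2(TPM + 1) scale centred on each library's median. Over all genes 32.5% of the calls were higher with library totals alone and 59.8% on the centred scale, beside 48.0% in the edgeR fit. Without any 1 of the DAPT libraries 3 of the relatives were lower, and without DMSO replicate 1 or 2 this was 4. The red blood cell factor gene gata1a fell to 8.02 ± 0.728 CPM with DAPT, against 17.5 ± 0.777 CPM with DMSO (-1.12 ± 0.09, adjusted p = 1.52e-06). The pharyngeal gene nkx2.3 rose by 0.68 ± 0.08, and tbx3a, known from the atrioventricular canal, by 0.46 ± 0.06. The hindlimb factor gene tbx4, at 1.93 ± 0.0620 CPM with DAPT and 3.56 ± 0.753 CPM with DMSO, fell by 0.88 on the log2 scale. Of the paralogue tbx5b, chosen after its values were seen, the change was -0.32 ± 0.10 (adjusted p = 0.0193), a call lost in 6 of the 15 alternatives and of opposite sign (0.04) on the centred TPM scale. It was lost without DAPT replicate 1 or 3 and without DMSO replicate 1, and its counts are not whole in 2 libraries.

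Of the 21 partners and cofactors, 7 rose, 3 fell and 11 were not called (median 0.06), so that 10 were called, beside 46.6% of all genes in either direction. On log2(TPM + 1) 4 were higher and 4 lower, and on the centred TPM scale 10 were higher and 2 lower. Of the calls over all genes, 24.9% and 59.8% were higher on these scales, in that order. The Gata-binding cofactor gene zfpm2a (Fog2) rose to 28.9 CPM with DAPT, against 19.7 CPM with DMSO (0.56 ± 0.08, adjusted p = 0.000202). The class II histone deacetylase gene hdac4, whose product binds and represses Mef2 proteins, rose by 0.87 ± 0.09, while those of the chromatin remodelling subunits smarcd3b and smarcd3a fell by 0.44 and 0.49 on the log2 scale. Smarcd3 proteins (Baf60c) are known to help Gata4 and Tbx5 open heart genes. Other members, chosen after their values were seen, were hdac5 at 0.42 ± 0.09, hdac9b at -0.24 ± 0.06, the serum response factor gene srfb at 0.59 ± 0.15, its coactivator gene myocd at 0.35 ± 0.09 and the Fog1 gene zfpm1 at 0.42 ± 0.11. The paralogue srfa, at 20.7 CPM with DAPT and 19.6 CPM with DMSO beside 6.55 and 4.35 CPM for srfb, did not pass (0.07 ± 0.07). Nor did zfpm2b, the paralogue of zfpm2a (-0.01 ± 0.07). The call of zfpm1 was lost without DAPT replicate 3 (adjusted p = 0.0538). On log2(TPM + 1) the calls of zfpm1, hdac5 and myocd were lost, and on the centred TPM scale that of hdac9b.

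Genes of signals that act upstream of these factors were called higher more often than lower, by a margin that varied with the scaling. Of 18 listed for BMP, TGF-beta, FGF and retinoic acid, 10 rose, 1 fell and 7 missed the threshold (median 0.24), beside 22.4% higher and 24.3% lower over all genes tested. With library totals alone 7 were higher and 2 lower, and on log2(TPM + 1) 6 were higher and 3 lower. Of the calls over all genes, 32.5% and 24.9% were higher in these fits, in that order. Without DMSO replicate 3 or DAPT replicate 3 the higher calls among the 18 were 7. The ligand gene bmp4 rose to 63.4 CPM with DAPT, against 43.4 CPM with DMSO (0.55 ± 0.06). The BMP effector gene smad9 rose by 1.00 ± 0.11, the BMP-induced gene id2b by 0.91 ± 0.10 and the retinoic acid synthesis gene aldh1a2, which also marks epicardium, by 0.73 ± 0.06. The gene that fell was bmp2a at -0.35 ± 0.12 (adjusted p = 0.0333). That call was lost in 6 alternatives, among them the fits without any 1 of the DAPT libraries or without DMSO replicate 3. The counts of smad9 are not whole in any library, so its level is uncertain.

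**Figure D5:**
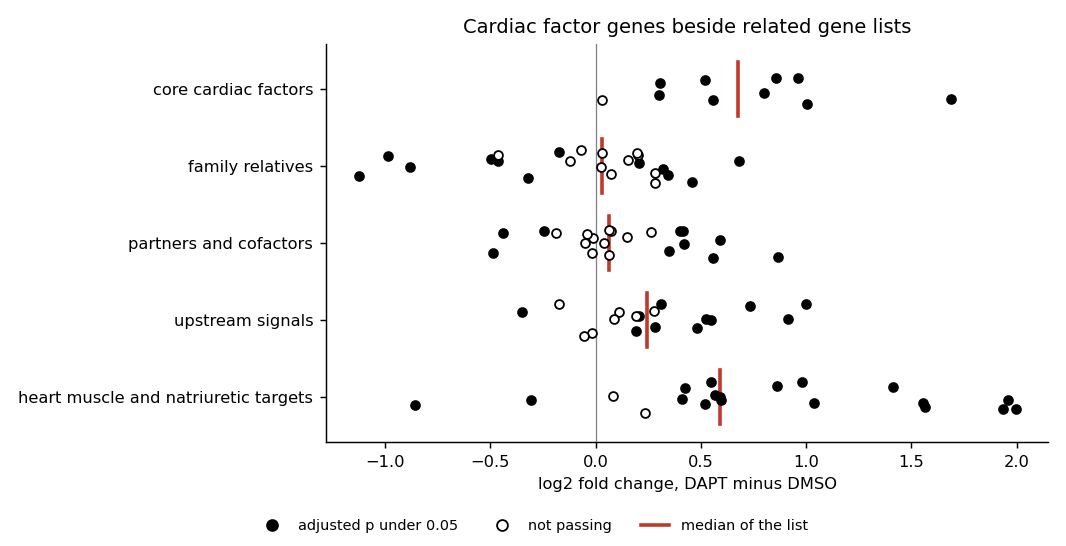
Log2 fold change (DAPT minus DMSO) of each gene of the 10 core factors and of 4 related lists, filled where the adjusted p was under 0.05, with the median of each list in red. The medians are 0.68 for the core factors, 0.03 for family relatives, 0.06 for partners and cofactors, 0.24 for upstream signals and 0.59 for heart muscle and natriuretic targets. Points are spread vertically for legibility.

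Markers of cell types other than heart muscle, some of them known for these factors, changed too, and their part in the results above was not tested. The marker counts stand beside 22.4% of all genes tested called higher and 24.3% lower. Intestinal markers summed to 788 to 840 CPM with DAPT, against 518 to 569 CPM with DMSO, and 4 of 5 rose, among them vil1 at 1.04 ± 0.06. The other, fabp6, was named after its value was seen and fell (-0.51 ± 0.08). With library totals alone, on log2(TPM + 1) and with the replicate number as a block, 3 of the 5 were higher. The same held without DAPT replicate 1 or 3 and without DMSO replicate 1. Liver markers summed to 1535 to 1578 CPM with DAPT, against 2851 to 3344 CPM with DMSO, and 5 of 6 fell, among them apoa2 at -1.01 ± 0.07. Of 5 pancreas markers 4 fell, among them prss1 at -1.09 ± 0.10 (summed 411 to 448 CPM with DAPT, against 741 to 939 CPM with DMSO). Of the 3 endodermal organs, where Gata factors are known, markers of intestine thus mostly rose and those of liver and pancreas mostly fell.

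Skeletal muscle markers, for the Mef2 genes, summed to 5014 to 6186 CPM with DAPT, against 3492 to 4648 CPM with DMSO, and 4 of 7 rose, mylpfa by 0.56 ± 0.12. Without DMSO replicate 3 this was 2 higher and 1 lower, and without DAPT replicate 3 it was 2 higher. For hand2 and tbx5a, 5 of 8 markers of pharyngeal arch, fin and cartilage rose and 3 fell (2 and 3 on log2(TPM + 1)). Without any 1 of the DAPT libraries 2 fell. The sum of the list was nevertheless lower with DAPT, at 4687 to 4948 CPM, against 5918 to 6849 CPM with DMSO. Most counted among them was the fin fold gene and2, which fell (-0.66 ± 0.07, 2316 ± 82.1 CPM with DAPT, 3651 ± 290 CPM with DMSO). Endothelial and endocardial markers, for the Gata and Mef2 genes, summed to 617 to 661 CPM with DAPT, against 413 to 500 CPM with DMSO, with 5 of 7 higher, tie1 by 0.51 ± 0.07. Of 4 epicardial markers 1 rose, aldh1a2 (194 ± 3.52 CPM with DAPT, 116 ± 7.30 CPM with DMSO). It made up most of the sum of the 4 (249 to 257 CPM with DAPT, 164 to 181 CPM with DMSO). Without DAPT replicate 2 or DMSO replicate 1, 2 of the 4 were higher. The neuronal lists were low, at a summed 56.0 to 61.0 CPM with DAPT and 41.7 to 48.1 CPM with DMSO for sympathetic neurons (2 of 4 higher, 1 lower) and 57.2 to 64.8 CPM with DAPT and 46.1 to 56.4 CPM with DMSO for cholinergic motor neurons (3 of 5 higher, 2 lower). Most of the sympathetic sum came from phox2a (27.7 CPM with DAPT, 18.0 CPM with DMSO) and phox2bb (25.4 and 20.6 CPM). The sympathetic gene that fell was th (-0.44 ± 0.17), and dbh did not pass. The cholinergic genes that fell were chata (-0.56 ± 0.16) and slc18a3a (-0.78 ± 0.15). These genes were named after their values were seen. The gene phox2bb is on both lists, and its call (0.30 ± 0.10) was lost without DAPT replicate 1 or 3 and without DMSO replicate 1. Without DAPT replicate 1 or 3 each list had 1 gene higher, and without DMSO replicate 1 the sympathetic list had 1. The call of th was lost with the replicate number as a block, without DAPT replicate 1 or 2 and without any 1 of the DMSO libraries. Without DAPT replicate 2 or 3 the cholinergic list had 1 gene lower. Blood markers rose in 4 of 5, with 1 lower and hbbe1.1 at 0.59 ± 0.07 (summed 3577 to 3786 CPM with DAPT, 2132 to 2452 CPM with DMSO). The lower call was lost without DAPT replicate 1 or 2 and without DMSO replicate 1 or 2. Counts of hbbe1.1 are not whole in any library, so its level is uncertain. All 5 retinal markers fell, to a summed 687 to 710 CPM with DAPT, against 1431 to 2265 CPM with DMSO.

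Genes next to the 10 on their chromosomes were also read. Neighbours were the nearest protein-coding gene on each side in the RefSeq table of assembly GRCz12tu, which is not the build of the files and served for gene order alone. Of 20 neighbours 18 were tested, of which 5 rose, 1 fell and 12 did not pass (median 0.08), so that 6 of 18 were called, beside 46.6% of all genes tested. Beside gata5 the gene rbbp8l rose by 0.69 ± 0.10, to 20.7 ± 1.56 CPM with DAPT, against 12.8 ± 1.44 CPM with DMSO (adjusted p = 0.000107). Beside tbx5a both neighbours rose, tbx3a as above and ddx54 by 0.28 ± 0.07. The others that passed, chosen after their values were seen, were fig4a beside gata4 at 0.37 ± 0.11, rasa1b beside mef2ca at 0.31 ± 0.09 and hmgb2a beside hand2 at -0.20 ± 0.07. The call of fig4a was lost without DAPT replicate 3, and that of hmgb2a without DAPT replicate 1 or 3 or without DMSO replicate 3. On log2(TPM + 1) the calls of fig4a, ddx54 and rasa1b were lost, and that of rasa1b also with library totals alone. Both tested neighbours of nkx2.7 were at or below 1.63 CPM in either group and did not pass.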

How the data were processed

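Zebrafish RNA-seq libraries (3 DAPT, 3 DMSO) were compared. The authors deposited read counts, TPM and FPKM per gene, per the file headers. The deposited values headed read counts were taken as estimated counts, because 15.2 to 16.0% per library are not whole, and were rounded to whole numbers here. TPM and FPKM are the values the authors deposited under those names, and FPKM was not used for any value printed here. The tools listed, per the submitters' processing notes, are featureCounts 1.6.0, STAR 2.7.1a and edgeR, and the build is GRCz11. Their roles are not stated. The annotation, the counting rules and the strand setting are not given in the sources used here, so reads of a gene and of an antisense partner cannot be told apart.

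All genes were fitted with edgeR 4.0.16 in R 4.3.3 (filterByExpr, 22092 genes kept, TMM factors, quasi-likelihood F test of group, 4 residual degrees of freedom, Benjamini-Hochberg adjustment at 0.05). The code was run on simulated data with far fewer changed genes than were called here, so that check does not cover this setting. The standard error is the log2 fold change divided by the square root of F. Ratios within a library were compared with exact two-sided permutation tests over libraries (scipy 1.17.1). Alternatives used DESeq2 1.42.0, limma 3.58.1 (voom, and log2(TPM + 1)), other scalings and filters, the replicate number as a block, and each library left out.

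The 10 genes and the gene lists were chosen with earlier results of these data known. Lists are described by counts and medians. Named genes were all 10 members, up to 4 per related list with the smallest p, the 6 heart muscle genes and the most counted gene of each marker list. The gene isl1a is in the table as isl1, matched by gene ID through RefSeq.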

Additional observations from a re-analysis of the deposited data

How the results depend on the processing

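The count of core factor genes called higher was 9 under 12 of the 15 alternatives. It was 8 to 9 over the 6 fits that left out a library and 6 with limma on log2(TPM + 1), and 0 fell in any. On that TPM scale the median over all genes shifted by -0.13, and the fit gave 2611 genes higher and 7872 lower of all tested, so 24.9% of its calls were higher, beside 48.0% in the edgeR fit, 32.5% with library totals alone and 59.8% on the centred TPM scale, which was added after the data were examined. Leaving out a library gave 4003 to 4876 genes higher and 4386 to 5253 lower.

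The log2 fold change of mef2cb was below 0 with library totals alone (-0.065), on log2(TPM + 1) (-0.094) and without DMSO replicate 3 (-0.018), and leaving out a library gave -0.018 to 0.064. The value of tbx5b was 0.041 on the centred TPM scale. Relative to heart muscle, gata6 was at 0.27 with myl7 alone, 0.15 with TPM and 0.050 without DAPT replicate 2, tbx20 at 0.22 with myl7 alone and 0.12 with TPM, and gata4 at -0.062 without DMSO replicate 2. The log2 ratio of gata5 to gata4 differed by -0.01 without DAPT replicate 3 and -0.063 without DMSO replicate 3, and that of gata6 to gata4 by 0.056 without DMSO replicate 2. The cause of these turns was not tested. With 1 library left out, and the set and unit unchanged, the relative difference of gata4 was -0.062 to 0.21 and of gata6 -0.054 to 0.050. For the gata5 to gata4 ratio it was then -0.063 to 0.19, and for the gata6 to gata4 ratio -0.21 to 0.056.

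Replicate numbers are shared by the groups, but libraries with the same number did not deviate together (correlations of 0.0067, -0.077 and -0.035), so the block was only an alternative. With the replicate block 9 of the 10 were called higher, and 4655 genes rose and 5061 fell. Among the genes named it ended the calls of bmp2a (adjusted p = 0.0534) and hmgb2a (adjusted p = 0.0646), and also that of th. Among the 10 core factors nkx2.7 had the fewest counts, 101 in its lowest library, and among the other genes named gja5a had as few as 19.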
